A study of Mus musculus with 21 samples.

Results

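Tumours of App NL-G-F knock-in male mice were compared with normal colon of knock-in males, over all genes of the count table. The samples were chosen by their labels alone, as the 3 knock-in male libraries labelled as tumour (tumour 1 to 3) and the 3 labelled as normal (normal 1 to 3), 6 of the 21 libraries of the series. Tumour libraries came from colon of mice given AOM/DSS, which pairs the carcinogen azoxymethane with dextran sulfate sodium, an irritant of the colon lining. All 6 libraries are from C57BL/6 males that carry App NL-G-F (RBRC06344), a knock-in of Alzheimer's disease mutations into the mouse amyloid precursor protein gene, so the mutant allele is on both sides of the comparison. The labels describe the normal libraries as non-treated, whereas the text of the series speaks of normal tissue beside tumours or normal colon without tumours. These libraries are called normal colon here. If the labels hold, tumour state and AOM/DSS treatment differ together, and their effects cannot be told apart in any result below. Age, the number of tumours behind a library and the depth of dissection are not given in the sources used here. Nor do the labels say whether the libraries of a group come from separate animals, so the p-values measure the spread between these libraries, which may be technical. Wild-type male tumours and normal colon, 3 libraries each, with the same treatment labels, serve as a reference for where the knock-in differs.

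The colon wall has a single-layered epithelium of absorptive colonocytes, mucus-secreting goblet cells, hormone-secreting enteroendocrine cells and tuft cells, renewed from crypts under Wnt signalling. Beneath it lie stroma and lymphoid follicles, and outside them the muscle layers with their enteric nerves. AOM/DSS tumours are known to arise in the epithelium after injury and to grow with high Wnt target expression, proliferation, matrix remodelling and inflammation.

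The 6 libraries held between 9968370 and 16801978 gene counts, which puts 3 counts, the smallest amount treated as measurable, at 0.179 to 0.301 CPM (counts scaled to a common library total with TMM factors). No pair of libraries within a group agreed within counting noise. The coefficient of variation between libraries was 32.5% in the tumours and 25.6% in normal colon, against 23.0% over all 21 libraries, and the first principal component of the 6 libraries, with 41.2% of the variance, placed all tumours at or above 13.6 and all normal libraries at or under -18.3. Tumour 3 carries library number 154 and the other 5 libraries numbers 129 to 136. Library number 154 is the only one of its range among the 6, so the other 5 libraries give the comparison within 1 range of numbers. Without tumour 3 the number of genes called below, 3246, was 2489. With a covariate for libraries numbered 152 and above, over all groups, that number was 2812. Outside the 6 libraries, this covariate marks only wild-type female tumours 2 and 3. As a check on the tissue, the epithelial genes Epcam and Cdh1 were abundant in every library, Epcam at 1151, 1179 and 1102 CPM in tumours 1 to 3 and 1173, 1171 and 937 CPM in normal 1 to 3. CPM values are not divided by gene length, so they compare libraries for a gene and not genes with each other.

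App itself, the gene carrying the knock-in (chromosome 16, chr16:84952666-85175255, GRCm38.p6), was measured at 540, 716 and 626 CPM in tumours 1 to 3 and at 708, 489 and 522 CPM in normal 1 to 3. The groups overlapped, and the log2 fold change of tumour over normal, called the log2 ratio below, was 0.13 (± 0.16 standard error, SE; Benjamini-Hochberg adjusted p 0.587 in the quasi-likelihood test of edgeR). Its sign is not fixed, since it was -0.01 without tumour 2 and -0.02 without normal 2. Counts per gene hold no allele, so App does not check the genotype labels.

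Of 15936 genes tested, 3246 passed an edgeR adjusted p of 0.05 (20.4%), with 1657 higher (10.4%) and 1589 lower (9.97%) in tumours. These shares are the background for the counts of list members below. Large decreases outnumbered large increases. More than 1 log2 unit separated the groups for 257 of the higher and 704 of the lower genes, and the median log2 fold change of all tested genes was 0.01. This fit estimates the spread from all 21 libraries, which include female wild-type normal colon, female wild-type tumours and female knock-in normal colon. Fitted alone, these groups had coefficients of variation of 17.9%, 17.4% and 19.4%, against 32.5% in the knock-in male tumours. A fit of the 6 libraries alone called 724 genes (4.72%), 221 higher (1.44%) and 503 lower (3.28%), of which 708 were also called with the same sign by the fit of 21, and 4147 genes had an unadjusted p under 0.05 there. The share of higher genes among those called was 51.0% in the fit of 21, 30.5% in the fit of 6 and 57.1% with library totals in place of TMM. With limma voom 7.89% of genes were higher and 7.03% lower. Without tumour 2 the fit called 1871 genes and without normal 3 it called 1392. In the text below, a call is said to hold throughout where the gene stayed past the threshold under every planned setting that tested it. These include the fit of 6 libraries and the omission of each knock-in library from the fit of 21. Fits added after seeing the data were not counted, among them the fits of the 6 libraries less 1 library, which called 26 to 466 genes. Among the 93 genes named and called, 32 held throughout, and all 93 kept their direction. For the 61 that lost the call in at least 1 setting, the text does not always give every such setting.

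Mmp13 and Mmp10, which encode the metalloproteinases collagenase 3 and stromelysin 2, had the largest increases, followed by H19, an imprinted non-coding RNA, and Dio2, the enzyme that activates thyroid hormone. The others were Il1rl1, Slc38a4 (an imprinted amino acid transporter), Il11, Cxcl3, Spp1 and Saa3. The 10 largest decreases were those of Pax5, Il22ra2, Optc, Igfbp2, Saa1, Mptx1, Adam33, Wscd2, Actg2 and Cnn1. Some of these 20 genes lost the call in other settings, given here or with their lists. Dio2 (edgeR adjusted p 0.0229) was at 0.0589 without tumour 2, 0.0514 without tumour 3, 0.0737 without normal 2 and 0.0811 without normal 3. Slc38a4 was at 0.0697 with limma voom, and Mptx1 at 0.0565 with limma voom and 0.0659 in edgeR's fit of 6 libraries. In all 20 the libraries of the groups did not overlap, but the naming rule required this. Among all tested genes 16.1% lay higher and 17.5% lower in tumours without overlap. H19 was measured at 4.15, 32.8 and 14.9 CPM in tumours 1 to 3 and at 0.28, 0.57 and 0.951 CPM in normal 1 to 3. It had a log2 ratio of 4.82 (± 1.09 SE, edgeR adjusted p 0.00851), and its call held throughout. The H19 value of normal 1 is near the level of 3 counts. Optc, which encodes a small leucine-rich matrix protein, stood at 0.408, 0.532 and 0.587 CPM in tumours against 10.3, 5.001 and 4.32 CPM in normal colon (log2 ratio -3.66 ± 0.63 SE, edgeR adjusted p 0.00239, held throughout). Saa1 fell while its relative Saa3, also an acute-phase gene, rose. Saa1 was measured at 14.8, 8.10 and 19.97 CPM in tumours and 84.3, 95.3 and 278 CPM in normal colon, a log2 ratio of -3.43 (± 0.72 SE, edgeR adjusted p 0.00605, held throughout). Saa3 was measured at 9.46, 32.1 and 26.5 CPM in tumours and 1.59, 1.27 and 4.41 CPM in normal colon (log2 ratio 3.24 ± 1.03 SE, edgeR adjusted p 0.0370). The Saa3 call was lost on omission of any of tumour 2, tumour 3 or the normal libraries, with edgeR adjusted p of 0.0636 to 0.109, and with limma voom (0.0630). Saa1 can share reads with near-identical paralogs, and so can Mptx1, and how such reads were assigned is not given in the sources used here.

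**Figure D1:**
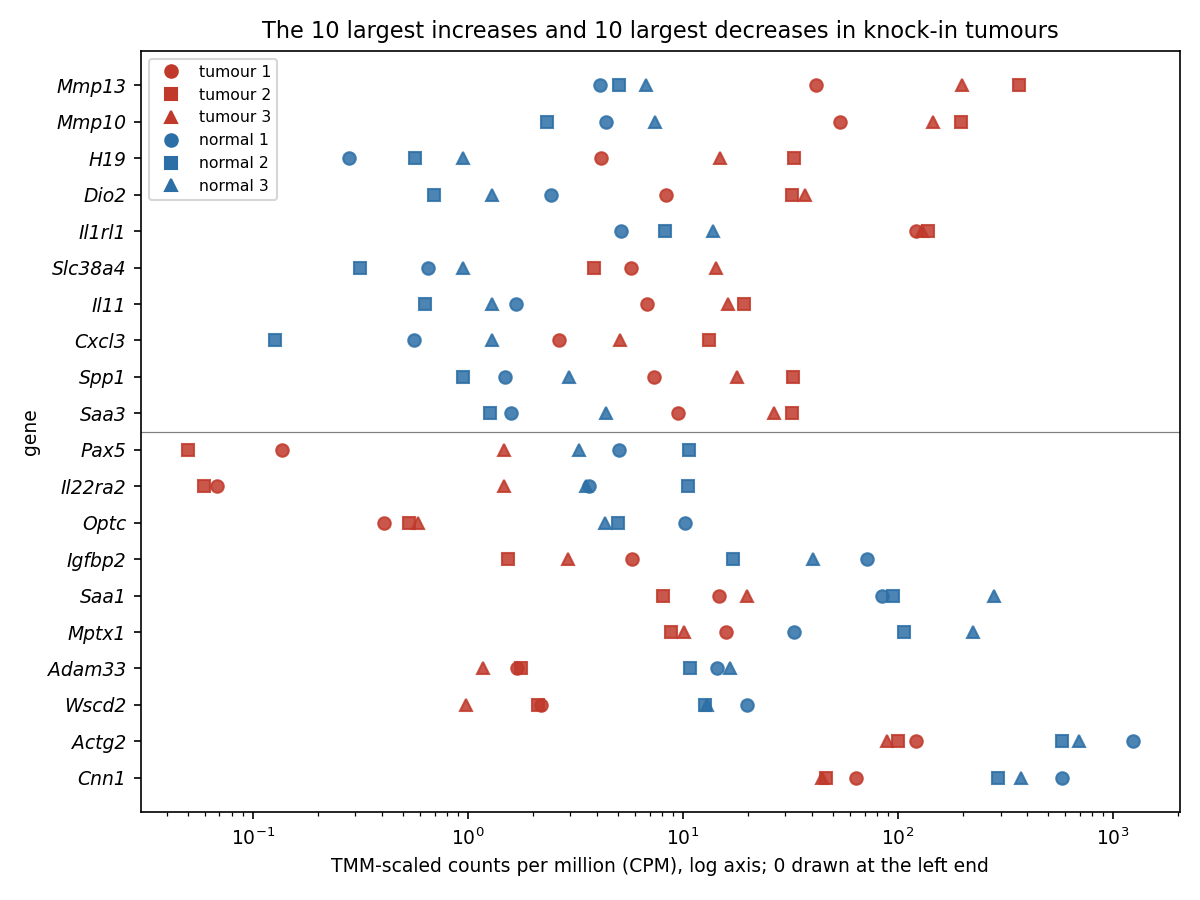
TMM-scaled CPM on a log axis for the 10 genes with the largest increase (upper block) and the 10 with the largest decrease (lower block) that met the naming rule. Each marker is a library, red for the 3 tumours and blue for the 3 normal libraries, and no gene's groups overlap, which the rule required. Tumour 1 is the lowest of the 3 tumours for 9 of the 10 increases.

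Matrix metalloproteinases cut collagens and other matrix proteins, and tissue inhibitors (Timp genes) restrain them. Of the 16 list members tested, 6 rose and none fell, where 10.4% of all genes were higher and 9.97% lower. The median log2 fold change was 0.89. Mmp13 was measured at 41.4, 366 and 199 CPM in tumours 1 to 3 and at 4.11, 5.06 and 6.74 CPM in normal 1 to 3. Mmp10 was measured at 53.9, 197 and 145 CPM against 4.39, 2.34 and 7.43 CPM. In both genes the lowest tumour, tumour 1, lay several-fold above the highest normal library. Mmp13 had a log2 ratio of 5.25 (± 1.19 SE, edgeR adjusted p 0.00913) and Mmp10 one of 4.83 (± 1.23 SE, adjusted p 0.0156 in edgeR), and both calls held throughout. Mmp3, which encodes stromelysin 1, rose by 3.57 on the log2 scale (± 0.93 SE, edgeR adjusted p 0.0160), but its tumour libraries at 2.79, 88.6 and 24.96 CPM overlapped the normal libraries at 5.42, 3.67 and 0.692 CPM. Its edgeR adjusted p was 0.191 in the fit of 6 libraries, 0.106 without tumour 2 and 0.0655 without normal 3, and 0.108 with limma voom. Mmp12, the macrophage elastase, rose by 2.10 (± 0.54 SE, edgeR adjusted p 0.0139), with 6.26, 20.1 and 16.5 CPM in tumours and 4.95, 1.65 and 3.54 CPM in normal colon. The edgeR adjusted p of Mmp12 was 0.0671 in the fit of 6 libraries and between 0.0509 and 0.0598 without tumour 2, normal 2 or normal 3. The other two called members were Mmp14 and Mmp2, named here because they complete the count. Mmp15 and the inhibitor gene Timp3 did not pass (log2 fold changes -0.24 and 0.24, edgeR adjusted p 0.499 and 0.379). The count of 6 became 2 in the fit of 6 libraries and without tumour 2, and 3 without normal 2 or normal 3.

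Mmp13, Mmp12, Mmp3 and Mmp10 lie close together on chromosome 9, with starts at 7272514, 7344397, 7445822 and 7502342 in GRCm38.p6. Their promoters, taken from RefSeq as 300-base windows around the annotated start on that build, were searched for the AP-1 motif TGANTCA, which reads the same on both strands. Of the 14 tested list genes with a window, 5 held it (Mmp3, Mmp7, Mmp10, Mmp12 and Mmp13), and over all 27025 genes with a window 8.97% did. Of these 5 genes 4 were called and Mmp7 was not. The 3 called promoters with the largest changes are shown because each holds the motif 35 to 63 bases before the start, with the match in capitals. Mmp13 is chr9:7272264-7272563, Mmp10 chr9:7502092-7502391 and Mmp3 chr9:7445572-7445871, all on the plus strand. A match is a description of the letters and not evidence of binding.
Mmp13: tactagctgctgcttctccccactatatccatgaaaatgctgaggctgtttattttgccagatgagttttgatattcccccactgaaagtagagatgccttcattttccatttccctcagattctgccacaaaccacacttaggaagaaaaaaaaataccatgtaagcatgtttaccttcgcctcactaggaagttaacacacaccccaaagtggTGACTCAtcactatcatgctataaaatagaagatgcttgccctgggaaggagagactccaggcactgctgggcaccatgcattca
Mmp10: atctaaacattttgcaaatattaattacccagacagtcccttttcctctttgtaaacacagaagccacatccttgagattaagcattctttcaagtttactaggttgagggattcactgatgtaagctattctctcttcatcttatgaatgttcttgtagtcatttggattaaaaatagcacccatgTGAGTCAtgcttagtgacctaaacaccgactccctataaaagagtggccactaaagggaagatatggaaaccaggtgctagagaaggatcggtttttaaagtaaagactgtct
Mmp3: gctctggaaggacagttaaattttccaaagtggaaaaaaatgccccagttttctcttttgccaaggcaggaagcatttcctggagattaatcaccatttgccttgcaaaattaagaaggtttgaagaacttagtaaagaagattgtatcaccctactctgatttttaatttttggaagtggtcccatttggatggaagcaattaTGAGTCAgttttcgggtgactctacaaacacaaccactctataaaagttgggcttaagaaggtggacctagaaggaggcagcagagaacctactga

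Collagens, the fibrous and basement membrane proteins that these enzymes act on, gave calls in both directions. Of the 18 chains tested, 3 rose and 4 fell, where 10.4% of all genes were higher and 9.97% lower, and the median was 0.02, with a sign that changed between settings. Col14a1, a fibril-associated collagen, had 19.9, 33.4 and 26.7 CPM in tumours and 62.6, 51.0 and 46.5 CPM in normal colon. Its groups did not overlap, with a log2 ratio of -1.0 (± 0.21 SE, edgeR adjusted p 0.00489, held throughout). The basement membrane gene Col18a1 rose from 103, 92.2 and 132 CPM to 222, 183 and 215 CPM (log2 ratio 0.92 ± 0.27 SE, edgeR adjusted p 0.0238). That call was lost without tumour 1, tumour 3, normal 1 or normal 2 (edgeR adjusted p 0.0544 to 0.0952). The main fibrillar chains Col1a1 and Col3a1 did not pass, at log2 fold changes of 0.45 and 0.06 (edgeR adjusted p 0.278 and 0.840), and their libraries overlapped. In the fit of 6 libraries the counts were 1 higher and 1 lower. Without any one of tumour 2, tumour 3 or a normal library, 1 chain was called higher and 1 or 2 lower. With library totals 2 were called lower, and so with limma voom.

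Genes of activated fibroblasts were also divided, with 6 of 16 higher and 3 lower, where 10.4% of all genes were higher and 9.97% lower. In bulk tissue, fewer cells of a type and less RNA per cell cannot be told apart, here and in the lists of other cell types. Wnt5a, a ligand of non-canonical Wnt signalling made by stromal cells, was measured at 67.5, 75.5 and 60.7 CPM in tumours and 25.9, 27.3 and 25.9 CPM in normal colon. It had the smallest adjusted p of the called genes named here (log2 ratio 1.36 ± 0.16 SE, edgeR adjusted p 0.000899, held throughout). Inhba, the activin A subunit gene, stood at 14.4, 26.4 and 20.1 CPM in tumours against 5.70, 3.99 and 7.09 CPM. It rose by 1.87 (± 0.48 SE, edgeR adjusted p 0.0143), with 0.0586 without tumour 2 and 0.0547 without normal 2. Thbs2 rose by 1.39 (± 0.32 SE, edgeR adjusted p 0.00884, and 0.0566 in the fit of 6 libraries). Acta2, Grem1 and Postn fell. Acta2 is also a smooth muscle gene, Grem1 encodes a BMP antagonist of the muscle-side stroma, and Postn encodes the matrix protein periostin. Grem1 had 29.6, 45.8 and 30.8 CPM in tumours and 136, 49.1 and 64.4 CPM in normal colon (log2 ratio -1.22 ± 0.29 SE, edgeR adjusted p 0.00991, and 0.114 in the fit of 6 libraries). Fn1 and Tnc, the genes of fibronectin and tenascin C, did not pass (edgeR adjusted p 0.413 and 0.388). The 6 higher became 3 in the fit of 6 libraries and without normal 2, and the 3 lower became 1 in the fit of 6.

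Inflammatory signals rose in a small set of genes, and with them the receptor of an alarmin. Il33 encodes an alarmin released by damaged cells, and Il1rl1 encodes its receptor ST2. Il33 was measured at 26.7, 45.1 and 18.4 CPM in tumours and 9.44, 5.89 and 6.05 CPM in normal colon (log2 ratio 2.09 ± 0.42 SE, edgeR adjusted p 0.00441, held throughout). Il1rl1 was measured at 121, 138 and 130 CPM in tumours and 5.14, 8.23 and 13.7 CPM in normal colon (log2 ratio 3.84 ± 1.01 SE, edgeR adjusted p 0.0175). The 3 tumours were close to each other in Il1rl1, and the only setting that lost its call was the omission of normal 1 (edgeR adjusted p 0.0583). Il11, an IL-6 family cytokine of stromal cells, had 6.81, 19.3 and 16.2 CPM in tumours against 1.68, 0.633 and 1.30 CPM (log2 ratio 3.58 ± 0.87 SE, edgeR adjusted p 0.0115, held throughout). Ptgs2, the inducible cyclooxygenase, had 71.9, 52.6 and 33.3 CPM against 9.35, 11.2 and 4.84 CPM (log2 ratio 2.63 ± 0.53 SE, edgeR adjusted p 0.00501, held throughout). For Ptgs2 tumour 1 was the highest tumour, whereas for Il11 and Il33 it was tumour 2. Il1rl1 is not a member of the cytokine and receptor list. In that list Il33, Il11, Ptgs2 and Il1a were higher, 4 of 15 tested, and 1 was lower, at a median of 0.74. Over all genes 10.4% were higher and 9.97% lower, and 1 of 15 is under the latter share. The lower gene was Il22ra2, which encodes a soluble antagonist of interleukin 22. It had 1, 1 and 15 counts in tumours and 39, 167 and 41 counts in normal colon (log2 ratio -3.67 ± 0.96 SE, edgeR adjusted p 0.0151). Its call was lost in the fit of 6 libraries (0.101), without tumour 2 (0.0586) and with limma voom (0.0643). The edgeR adjusted p of Il1a, 0.0383, was 0.0767 in the fit of 6 libraries and 0.0592 to 0.138 without tumour 2, tumour 3, normal 1 or normal 2. Il22ra1 and Il1rn did not pass.

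Neutrophil genes and the chemokines that draw neutrophils stood higher with a wide spread. Their median log2 fold change was 1.97, the largest of the 30 lists, and 10 of the 14 tested lay higher in tumours without overlap, against 16.1% of all genes. Summed over the list, tumours 1 to 3 had 170, 269 and 286 CPM and normal 1 to 3 had 73.9, 31.7 and 84.3 CPM. Only Cxcl3 passed, at 2.65, 13.3 and 5.09 CPM against 0.561, 0.127 and 1.30 CPM (log2 ratio 3.45 ± 0.90 SE, edgeR adjusted p 0.0152). Its edgeR adjusted p was 0.0669 in the fit of 6 libraries, 0.0760 without tumour 2 and 0.0519 without normal 2. The Cxcl3 value of normal 2 is under the level of 3 counts. Cxcl5 had 101, 152 and 129 CPM in tumours and 42.7, 14.1 and 36.8 CPM in normal colon, and did not pass (log2 ratio 2.04 ± 0.82 SE, edgeR adjusted p 0.0898, and 0.0471 in the fit of 6 libraries). Lcn2, an iron-binding antimicrobial protein, did not pass either (log2 ratio 2.03 ± 0.91 SE, edgeR adjusted p 0.122). The fit of 6 libraries called 3 members, and none was called without tumour 2 or without normal 2. Of the 16 macrophage genes 1 rose, where 10.4% of all genes were higher. It was Spp1, which other cell types also express, and the list's median was -0.28. Arg1, an enzyme of alternatively activated macrophages, reached 291 CPM in tumour 2 against 28.9 and 70.1 CPM in tumours 1 and 3 and 44.4, 5.57 and 13.0 CPM in normal colon, and did not pass (edgeR adjusted p 0.144).

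Cell cycle genes were higher in the tumours, most of all in tumour 2. Of the 20 tested, 15 rose, against 10.4% of all genes, and none fell, at a median of 0.84. Top2a, which untangles replicated DNA, had 167, 358 and 270 CPM in tumours and 101, 162 and 103 CPM in normal colon (log2 ratio 1.11 ± 0.23 SE, edgeR adjusted p 0.00466). Rrm2, which supplies deoxynucleotides, had 29.1, 66.4 and 53.6 CPM against 16.9, 24.6 and 16.4 CPM (log2 ratio 1.36 ± 0.27 SE, edgeR adjusted p 0.00350). In both genes all tumours lay above all normal libraries, with tumour 1 nearest to them. Bub1 and Ccnb1, of the mitotic checkpoint and mitotic entry, rose by 1.23 and 1.32. All 4 lost the call in the fit of 6 libraries, with edgeR adjusted p of 0.0527 for Rrm2, 0.0600 for Ccnb1, 0.0688 for Bub1 and 0.0798 for Top2a. Ccnd2 and Plk1 did not pass (log2 fold changes 0.48 and -0.38). The count of 15 was 18 with limma voom, 6 without tumour 2, 8 without normal 3 and 1 in the fit of 6 libraries. Ribosome biogenesis, which supplies growing cells, gave a smaller shift, with 6 of 16 higher, a median of 0.38 and all 16 log2 fold changes positive. Nop58, a core protein of small nucleolar ribonucleoproteins, had 63.4, 81.0 and 77.8 CPM in tumours and 54.1, 47.3 and 37.9 CPM in normal colon (log2 ratio 0.67 ± 0.18 SE, edgeR adjusted p 0.0159, and 0.0651 in the fit of 6 libraries, 0.0721 without tumour 2 and 0.0816 without normal 3). The count of 6 fell to 0 in the fit of 6 libraries and without tumour 2, to 1 without normal 3 and to 3 without tumour 3 or normal 1. With voom 5 passed, and 8 of the 16 had an unadjusted edgeR p under 0.05.

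Wnt feedback and target genes, whose transcripts report canonical Wnt signalling in crypts and tumours, did not separate the groups. All 20 log2 fold changes were positive with a median of 0.60, but 1 gene passed, under the 10.4% of all genes called higher. Axin2, the classic feedback inhibitor, was measured at 447, 187 and 380 CPM in tumours 1 to 3 and 300, 86.5 and 315 CPM in normal 1 to 3. Nkd1, another feedback inhibitor, had 411, 109 and 352 CPM against 251, 53.0 and 248 CPM. In both genes normal 1 and normal 3 lay above tumour 2, and neither gene passed (log2 fold changes 0.53 with SE 0.41 and 0.66 with SE 0.60, edgeR adjusted p 0.374 and 0.453). Summed over the list, tumours 1 to 3 had 3544, 1670 and 3110 CPM and normal 1 to 3 had 2249, 845 and 2339 CPM. The called gene was Ephb2, a receptor of crypt cells (log2 ratio 0.49 ± 0.15 SE, edgeR adjusted p 0.0335). Its edgeR adjusted p was 0.135 in the fit of 6 libraries and 0.0726 to 0.177 without tumour 2, tumour 3, normal 2 or normal 3. With the covariate for library number it was 0.0788, and the limma voom value was 0.0577. DESeq2 called 3 members, and 2 were called without tumour 2 or normal 1. Of the 12 tested list genes with a promoter window 1, Sp5, held a TCF/LEF motif (CTTTGAA or CTTTGAT, both strands), against 9.88% of all genes with a window. Sp5 was not called.

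Genes of the fetal-like regenerative epithelium, a state known from wound repair in the gut, rose in 6 of 15 cases. Among all genes 10.4% were higher, and the list's median was 0.95. Cd44, a hyaluronan receptor, had 316, 445 and 272 CPM in tumours and 186, 111 and 89.1 CPM in normal colon (log2 ratio 1.42 ± 0.32 SE, edgeR adjusted p 0.00700, held throughout). Ereg, an EGF receptor ligand, had 69.6, 49.8 and 37.9 CPM against 16.2, 12.1 and 7.61 CPM (log2 ratio 2.13 ± 0.70 SE, edgeR adjusted p 0.0418). The Ereg call was lost on omission of any of the 6 libraries (edgeR adjusted p 0.0519 to 0.141) and with limma voom (0.108). Spp1, the osteopontin gene, had 7.35, 32.5 and 17.9 CPM against 1.495, 0.950 and 2.94 CPM (log2 ratio 3.45 ± 0.83 SE, edgeR adjusted p 0.0108, held throughout). Il33, described above, and the growth-promoting genes Areg and Ccnd1 completed the 6. Anxa1 reached 1696 CPM in tumour 2 against 385 and 481 CPM in tumours 1 and 3 and 494, 213 and 141 CPM in normal colon, and did not pass (edgeR adjusted p 0.0781). The fit of 6 libraries called 5 members, and the omission of a library left 4 to 7.

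**Figure D2:**
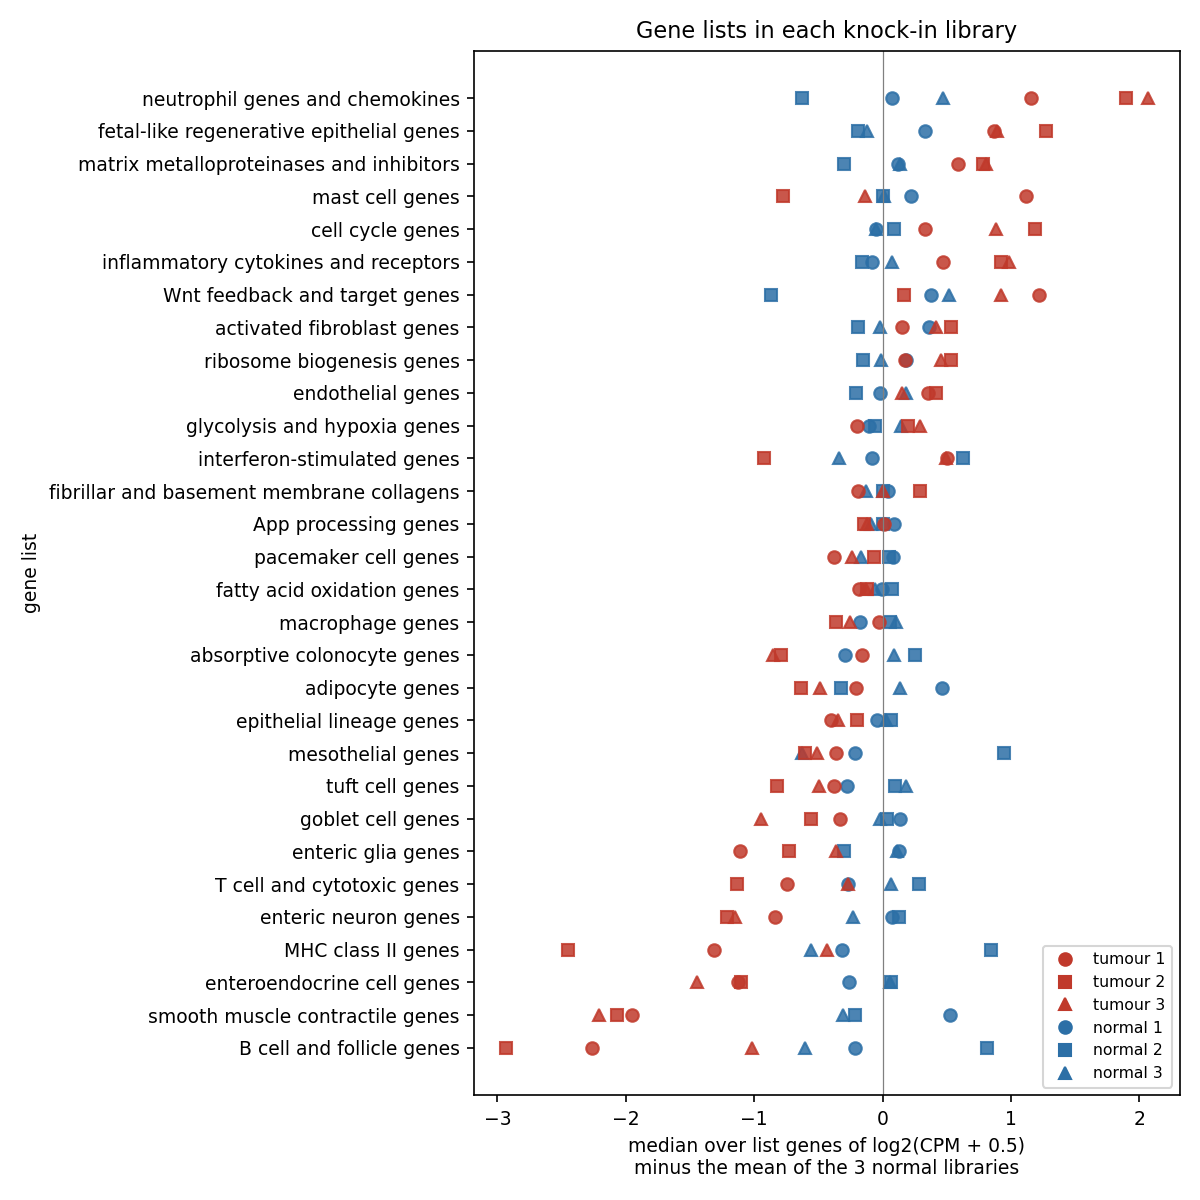
Median over each list's tested genes of the difference in log2(CPM + 0.5) from the mean of the 3 normal libraries, for each of the 6 libraries and the 30 lists. Smooth muscle genes sit at -1.95 to -2.21 in the 3 tumours, while for the Wnt list tumour 2, at 0.16, lies below normal 1 and normal 3.

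Differentiated epithelial cells were examined in 3 mature lineages, in each of which some genes fell and none rose. Among the 19 absorptive colonocyte genes 8 fell, against 9.97% of all genes, and 11 were not called. Of the log2 ratios 6 were positive, and the median was -0.32. The list summed to 3315, 2382 and 2001 CPM in tumours and 2554, 4009 and 3372 CPM in normal colon, so tumour 1 lay inside the normal range. Car4, a membrane carbonic anhydrase, had 49.7, 28.5 and 16.5 CPM in tumours and 132, 268 and 316 CPM in normal colon (log2 ratio -2.91 ± 0.52 SE, edgeR adjusted p 0.00279, held throughout). Aqp8, a water channel, had 14.6, 11.1 and 8.52 CPM against 42.4, 48.9 and 70.5 CPM (log2 ratio -2.23 ± 0.51 SE, edgeR adjusted p 0.00899, held throughout). Tumour 3 was the lowest library for both. Slc26a3, the chloride-bicarbonate exchanger, fell by 2.14 (± 0.64 SE, edgeR adjusted p 0.0292), with 0.0544 in the fit of 6 libraries and 0.0586 to 0.0932 without tumour 2, tumour 3, normal 2 or normal 3. Scnn1g, a subunit of the aldosterone-regulated sodium channel, varied most among normal libraries, at 30.6, 15.3 and 124.8 CPM, with 9.66, 13.7 and 6.07 CPM in tumours. It had a log2 ratio of -2.52 (± 0.62 SE, edgeR adjusted p 0.0123), with 0.142 in the fit of 6 libraries and 0.0923 without normal 3. Guca2a, the gene of the peptide guanylin, was picked after its values were seen. It had 38.2, 30.8 and 22.8 CPM against 79.4, 112 and 93.6 CPM (log2 ratio -1.63 ± 0.24 SE, edgeR adjusted p 0.00170, and 0.0159 in the fit of 6 libraries). The brush border genes Vil1 and Cdh17 did not pass (log2 fold changes -0.27 and 0.18). The count of 8 was 4 in the fit of 6 libraries and without normal 3, and 5 with limma voom.

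Among the 15 goblet cell genes 5 fell, against 9.97% of all genes, and 10 were not called. Of the log2 ratios 5 were positive, and the median was -0.73. The list summed to 13806, 8364 and 5683 CPM in tumours and 21979, 19370 and 17023 CPM in normal colon, without overlap. Fcgbp, a protein of the mucus gel, had 4323, 2583 and 2034 CPM in tumours and 9100, 8861 and 7003 CPM in normal colon (log2 ratio -1.48 ± 0.33 SE, edgeR adjusted p 0.00664, held throughout). Tff3, the trefoil peptide gene, had 280, 156 and 123 CPM against 568, 465 and 627 CPM (log2 ratio -1.57 ± 0.28 SE, edgeR adjusted p 0.00262, held throughout). In both genes tumour 1 kept the highest level of the tumours, and this was also so for Zg16 and Atoh1. Atoh1, the transcription factor of the secretory lineage, had 33.4, 17.4 and 14.9 CPM against 58.1, 64.3 and 57.6 CPM (log2 ratio -1.45 ± 0.38 SE, edgeR adjusted p 0.0151, with 0.0569 without tumour 2 and 0.0551 without tumour 3). Zg16 fell by 1.85 (± 0.50 SE, edgeR adjusted p 0.0180), with 0.131 in the fit of 6 libraries, 0.0625 without tumour 2 and 0.0612 without normal 3. Muc2, the main gel-forming mucin, had 7893, 4670 and 2838 CPM in tumours and 10493, 8170 and 7576 CPM in normal colon. Tumour 1 lay inside the normal range, and Muc2 did not pass (log2 ratio -0.77 ± 0.44 SE, edgeR adjusted p 0.217). The count of 5 became 3 in the fit of 6 libraries and without tumour 2 or tumour 3.

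Enteroendocrine genes gave the fullest decrease of the epithelial lists, with 10 of 16 lower, against 9.97% of all genes. None was higher, and the median was -1.5. Chgb, a granule protein, had 15.99, 15.5 and 13.1 CPM in tumours and 60.7, 63.6 and 55.5 CPM in normal colon (log2 ratio -2.01 ± 0.42 SE, edgeR adjusted p 0.00525, held throughout). Its tumours and its normal libraries each lay close together. Among hormones, Pyy had 10.3, 21.8 and 22.3 CPM against 42.7, 62.2 and 175 CPM (log2 ratio -2.36 ± 0.44 SE, edgeR adjusted p 0.00337, and 0.0867 in the fit of 6 libraries). Insl5 fell by 2.37 (± 0.55 SE, edgeR adjusted p 0.00888, and 0.0627 in the fit of 6 libraries). Tph1, which makes serotonin in enterochromaffin cells, and the transcription factor Neurod1 did not pass (log2 fold changes -1.30 and -1.13, edgeR adjusted p 0.0502 and 0.0739). Summed over the list, tumours had 89.0, 81.8 and 64.9 CPM and normal colon 234, 280 and 401 CPM. The count was 4 in the fit of 6 libraries, 8 with limma voom, and 7 to 10 on omission of a library. In the tuft cell list 1 of 9 fell, near the 9.97% of all genes called lower. It was Dclk1, a gene also expressed outside tuft cells (log2 ratio -0.68 ± 0.19 SE, edgeR adjusted p 0.0174). Its call was lost in the fit of 6 libraries (0.0889), without tumour 3 (0.0591), without normal 2 (0.0586) and with limma voom (0.0615). Avil stood higher in 2 of the 3 tumours and did not pass (edgeR adjusted p 0.0881).

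General epithelial genes gave calls in both directions. Of 15 lineage genes 1 rose and 5 fell, where 10.4% of all genes were higher and 9.97% lower. The median was -0.41, and the list summed to 8446, 10310 and 9005 CPM in tumours and 10318, 10919 and 10338 CPM in normal colon. Cdx1, a homeobox factor of intestinal identity, had 110, 154 and 130 CPM in tumours and 227, 247 and 230 CPM in normal colon (log2 ratio -0.84 ± 0.18 SE, edgeR adjusted p 0.00520, held throughout). Klf4, a factor of the differentiated crypt surface, had 217, 342 and 291 CPM against 508, 585 and 502 CPM (log2 ratio -0.91 ± 0.30 SE, edgeR adjusted p 0.0422). The Klf4 call was lost on omission of tumour 1, tumour 3 or any normal library (edgeR adjusted p 0.0556 to 0.109). It was also lost with limma voom (0.0779) and with the replicate number as a block (edgeR adjusted p 0.0530). The tight junction gene Cldn3 fell by 0.70 (± 0.16 SE, edgeR adjusted p 0.00814, and 0.0546 in the fit of 6 libraries). Krt18, a simple epithelial keratin, was the gene that rose, at 378, 390 and 367 CPM against 304, 201 and 276 CPM (log2 ratio 0.54 ± 0.13 SE, edgeR adjusted p 0.00873, and 0.0985 in the fit of 6 libraries). Krt8 and Krt19 did not pass (log2 fold changes -0.22 and -0.13), nor did Epcam and Cdh1, which were looked up as tissue checks (log2 fold changes 0.07 and 0.11, edgeR adjusted p 0.734 and 0.524). The 5 lower became 2 in the fit of 6 libraries and without tumour 3 or normal 3, and 3 without normal 2 and with limma voom.

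**Figure D3:**
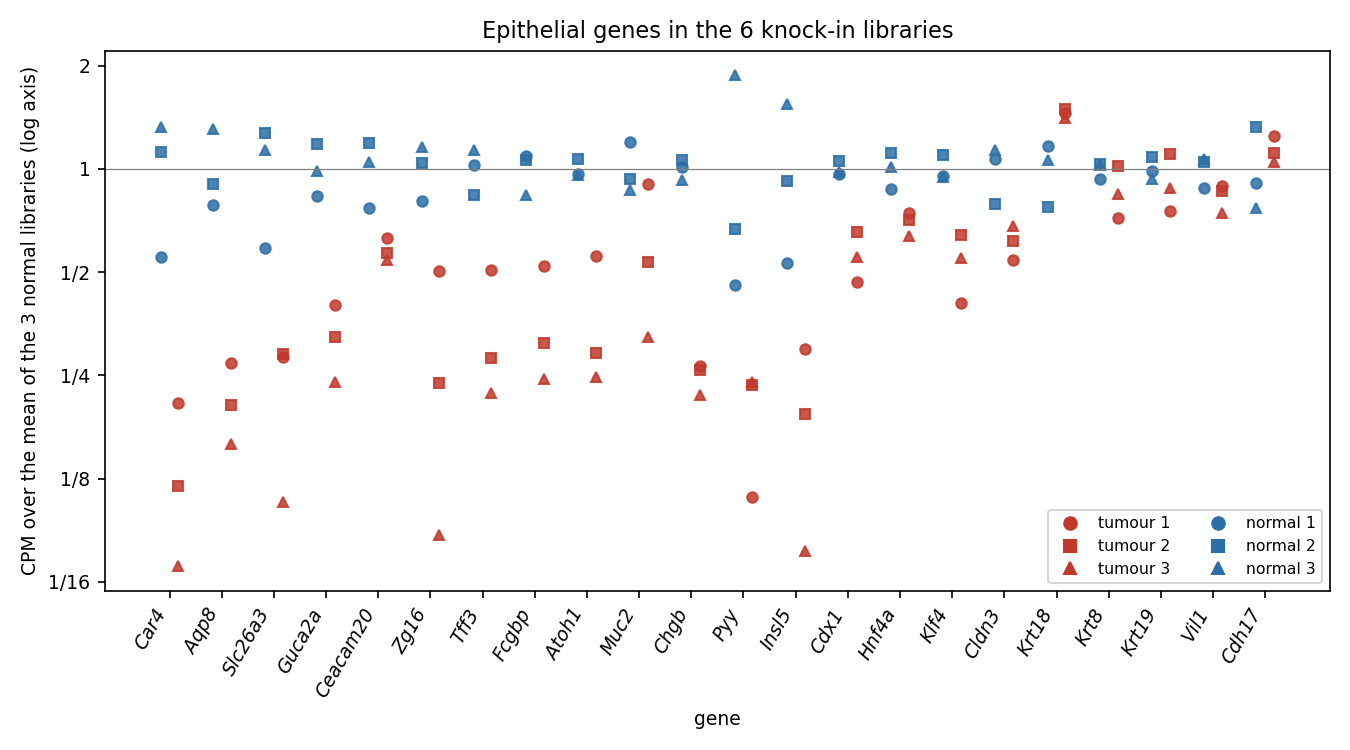
CPM of 22 epithelial genes divided by the gene's mean in the 3 normal libraries, on a log axis with base 2, for the 3 tumours (red) and the 3 normal libraries (blue). Many of the transport, mucus and hormone genes at the left lie below the normal libraries in the tumours. For the mucin gene Muc2 the groups overlap, as they do for Krt8, Krt19, Vil1 and Cdh17 at the right.

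Smooth muscle contractile genes showed the most complete change of the 30 lists. Of the 18 tested, 17 fell, all 17 without overlap between the groups, against 9.97% of all genes called lower and 17.5% lower without overlap. The median log2 fold change was -2.09. Summed over the list, the tumours had 1916, 1823 and 1811 CPM and normal 1 to 3 had 11480, 6435 and 6427 CPM. Actg2, the enteric actin, had 122, 101 and 88.9 CPM in tumours and 1233, 578 and 697 CPM in normal colon (log2 ratio -3.01 ± 0.53 SE, edgeR adjusted p 0.00270, held throughout). Myh11, the smooth muscle myosin, had 297, 326 and 228 CPM against 2305, 1504 and 1318 CPM (log2 ratio -2.59 ± 0.59 SE, edgeR adjusted p 0.00879, held throughout). The tumours were close together and normal 1 was the highest library for both. Cnn1, the calponin gene, and Des, the desmin gene, fell by 3.01 (± 0.51 SE) and 2.90 (± 0.66 SE), with edgeR adjusted p of 0.00256 and 0.00887, and both held throughout. Pcp4, the member not called, had at most 11 counts in a tumour and 24 in a normal library. The fit of 6 libraries called 14 of the 18, and the omission of a library left 14 to 17. Acta2 and Actg2 are near-identical in coding sequence and can share reads. Whether the pieces of tumour and of normal colon held the same share of muscle wall was not tested.

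The CArG box, the motif of serum response factor at muscle genes, was searched in the same 300-base windows on both strands. Of the 14 tested list genes with a window 1, Myl9, held it, against 1.81% of all genes with a window. Myl9 encodes the regulatory light chain of smooth muscle myosin and fell from 356, 202 and 233 CPM to 43.8, 54.0 and 41.1 CPM (log2 ratio -2.51 ± 0.46 SE). It was picked because it holds the motif. Its window, chr2:156775214-156775513 on the plus strand, is shown with the box in capitals, beginning 161 bases before the start. The absence of a match elsewhere says only that these letters are not in these windows.
Myl9: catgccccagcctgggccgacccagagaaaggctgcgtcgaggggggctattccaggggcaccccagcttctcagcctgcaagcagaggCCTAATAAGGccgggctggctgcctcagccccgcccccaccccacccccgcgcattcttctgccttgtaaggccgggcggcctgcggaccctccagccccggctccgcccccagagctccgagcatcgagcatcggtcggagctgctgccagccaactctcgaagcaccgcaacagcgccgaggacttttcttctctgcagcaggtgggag

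Some nerve, glia and pacemaker cell genes of the muscle layers fell. The summed levels of the glia and pacemaker lists were lower in tumours without overlap, while those of the neuron list overlapped. Of 16 enteric neuron genes 7 fell, against 9.97% of all genes, and none rose, with a median of -1.27. The neuron list summed to 109 CPM in tumour 1, above all normal libraries (107, 108.7 and 96.2 CPM), and to 49.3 and 79.2 CPM in tumours 2 and 3. Ret, a receptor that is not called, gave 70.8 CPM of the sum in tumour 1. Gal, the neuropeptide galanin, had 0.817, 0.177 and 0.0979 CPM in tumours and 4.21, 2.85 and 2.68 CPM in normal colon (log2 ratio -3.07 ± 0.71 SE, edgeR adjusted p 0.00746, held throughout). The values of tumours 2 and 3 are at or under the level of 3 counts. Hand2, a transcription factor of enteric neurons and visceral mesenchyme, had 2.45, 1.30 and 0.979 CPM against 9.81, 7.15 and 9.16 CPM (log2 ratio -2.44 ± 0.55 SE, edgeR adjusted p 0.00698, held throughout). Vip fell by 1.87 (± 0.58 SE, edgeR adjusted p 0.0312), with 0.166 in the fit of 6 libraries and 0.0570 to 0.0992 without tumour 2, tumour 3, normal 1 or normal 2. Of 11 glial genes 3 fell, against 9.97% of all genes. The glia list summed to 255, 287 and 273 CPM in tumours and 367, 403 and 428 CPM in normal colon. Among the 3 was Gfap, the glial filament gene, which fell from 4.49, 3.10 and 4.32 CPM to 0.953, 0.355 and 0.979 CPM (log2 ratio -2.40 ± 0.48 SE, edgeR adjusted p 0.00386, held throughout). Of 10 genes of interstitial pacemaker cells 4 fell and 1 rose, the latter near the 10.4% of all genes called higher. The median was -0.17, and the list summed to 701.3, 825 and 651 CPM in tumours and 889, 1118 and 840 CPM in normal colon. Kcnn3, a potassium channel of the fibroblast-like type, fell from 13.0, 13.2 and 10.55 CPM to 5.17, 6.09 and 3.33 CPM (log2 ratio -1.32 ± 0.32 SE, edgeR adjusted p 0.00918, held throughout). Pdgfra, shared with fibroblasts, was the member that rose (log2 ratio 0.61 ± 0.20 SE, edgeR adjusted p 0.0404). Its call was lost in 9 of 15 settings. Among these were the fit of 6 libraries (0.146), limma voom (0.181) and the omission of any normal library (edgeR adjusted p 0.0743 to 0.148). Without tumour 1, where Pdgfra was highest, the edgeR adjusted p was 0.354. In the fit of 6 libraries the neuron, glia and pacemaker lists had 2, 1 and 2 members lower. Without tumour 2 or tumour 3 the neuron count was 4, and without tumour 3 the pacemaker count was 2.

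B cell and follicle genes were lower in the tumours, with a decrease that rests on the fit of 21 libraries. Of the 17 tested, 10 fell and 14 lay lower without overlap, against 9.97% and 17.5% of all genes. The median was -2.21. Summed over the list, tumours 1 to 3 had 47.2, 35.2 and 111 CPM and normal 1 to 3 had 191, 395 and 143 CPM. Normal 2 was the highest normal library and tumour 3 the highest tumour. Pax5, the commitment factor of B cells, had 2, 0 and 15 counts in tumours and 54, 168 and 38 counts in normal colon (log2 ratio -3.75 ± 1.10 SE, edgeR adjusted p 0.0248). Its edgeR adjusted p was 0.108 in the fit of 6 libraries and between 0.0680 and 0.0785 without tumour 1, tumour 2 or normal 2, and 0.0814 with limma voom. Spib, a factor of B cells that is also made by specialised epithelial cells over follicles, had 1.29, 0.769 and 5.77 CPM against 12.2, 20.8 and 11.1 CPM (log2 ratio -2.56 ± 0.61 SE, edgeR adjusted p 0.00980, and 0.0950 in the fit of 6 libraries). None of the 17 was called in that fit, while 15 were with DESeq2, 5 with limma voom, 1 without tumour 1 or normal 2, 2 without tumour 2 and 6 without normal 3, and all 17 had an unadjusted p under 0.05 in the fit of 21.

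Other immune lists had few or no called genes, although antigen presentation and T cell genes had negative medians. Of 10 MHC class II genes 2 fell, H2-DMb2 and the class II transactivator Ciita, against 9.97% of all genes. None of the 10 log2 ratios was positive, the median was -1.28, and the list summed to 488, 183 and 885 CPM in tumours and 799, 1851 and 711 CPM in normal colon. Tumour 3 thus lay inside the normal range. Neither was called in the fit of 6 libraries (0.0772 and 0.150), and the count was 0 without tumour 2 or normal 2, 1 without tumour 1 or normal 3 and 7 without tumour 3. T cell genes had a median of -1.06 with none of 16 log2 ratios positive, and summed to 36.4, 14.2 and 44.8 CPM in tumours and 45.0, 55.0 and 57.7 CPM in normal colon. None of the 16 passed in edgeR, DESeq2 or limma voom, and 1 had an unadjusted edgeR p under 0.05. None of the 16 interferon-stimulated genes passed in edgeR or limma voom, 1 did in DESeq2, and 1 had an unadjusted edgeR p under 0.05. In the mast cell list 1 of 11 fell, near the 9.97% of all genes called lower. It was Kit, a gene shared with pacemaker cells (log2 ratio -0.86 ± 0.24 SE, edgeR adjusted p 0.0183). The Kit call was lost in the fit of 6 libraries (0.102), without tumour 2 (0.0713) and without tumour 3 (0.0717). The list's median of 0.88 has the opposite sign to Kit, and turned negative without tumour 1 (-0.481), with limma voom and at a mean of at least 50 counts.

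**Figure D4:**
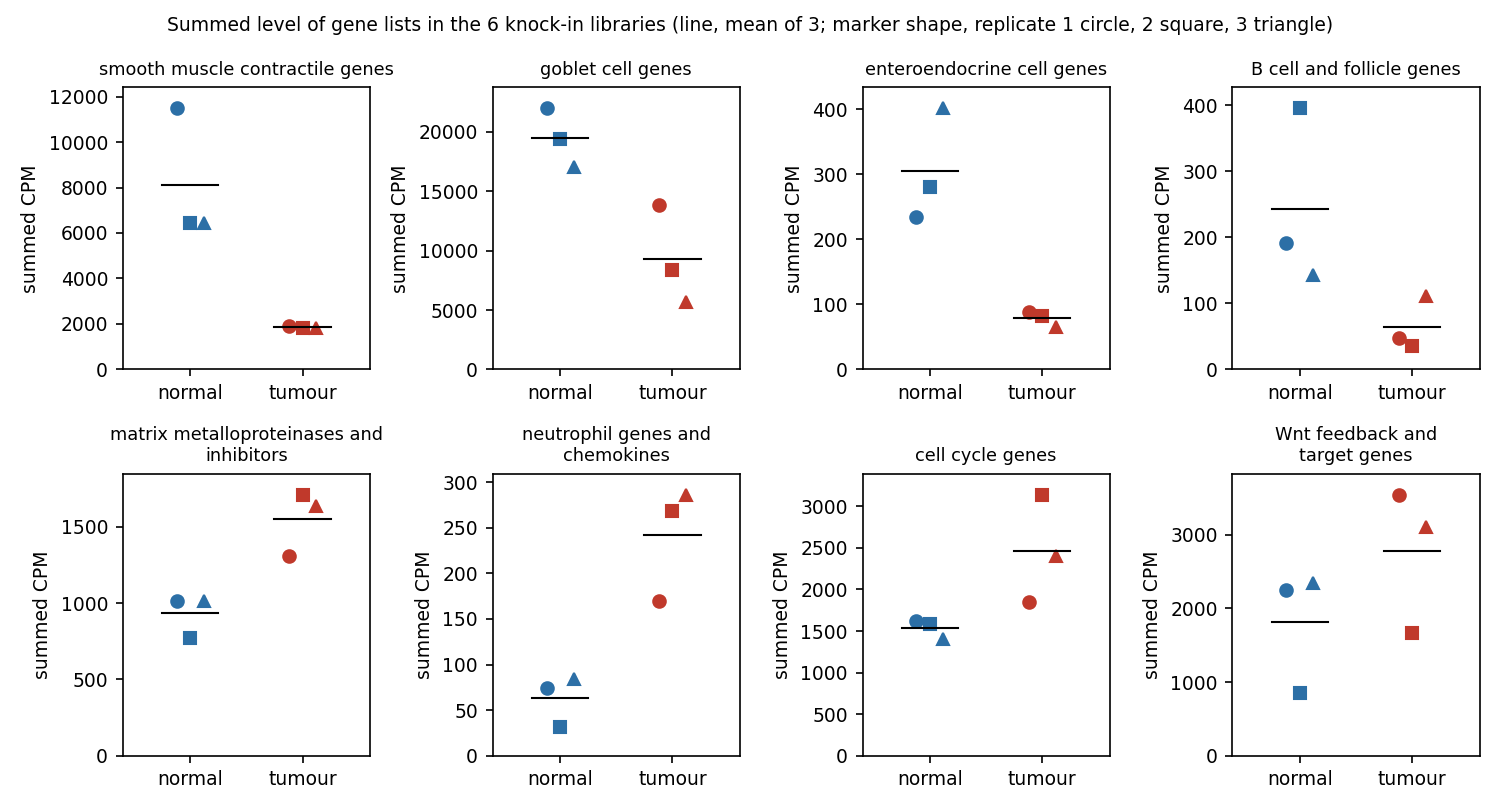
Summed CPM of 8 gene lists in each of the 6 knock-in libraries, on axes from 0, with a line at the mean of each group. For smooth muscle genes the tumours lie between 1811 and 1916 CPM and the normal libraries between 6427 and 11480 CPM, while in the Wnt list tumour 2 lies below normal 1 and normal 3.

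Vascular, serosal, fat and metabolic genes completed the lists, with few calls where 10.4% of all genes were higher and 9.97% lower. Of 16 endothelial genes 1 rose, Apln, the ligand of the apelin receptor that is made by sprouting vessels, from 1.59, 2.41 and 0.951 CPM to 4.15, 9.11 and 9.59 CPM (log2 ratio 2.18 ± 0.64 SE, edgeR adjusted p 0.0241). Its call was lost without tumour 2, tumour 3, normal 1 or normal 3 (edgeR adjusted p 0.0607 to 0.101) and with limma voom (0.113). Of 11 mesothelial genes 2 fell, Cldn15 and Wt1, the latter on 12, 59 and 1 counts in normal colon and 3, 2 and 0 in tumours, and none was called in the fit of 6 libraries or without tumour 2, tumour 3 or normal 2. None of the 7 adipocyte genes passed in edgeR or limma voom, 1 did in DESeq2, and 3 had an unadjusted edgeR p under 0.05. Car3, a carbonic anhydrase abundant in fat, had 164 CPM in tumour 3 against 0.476 and 1.48 CPM in the other tumours. None of the 16 fatty acid oxidation genes passed in edgeR or limma voom, 2 did in DESeq2, and 4 had an unadjusted edgeR p under 0.05. Among 15 glycolysis and hypoxia genes Pfkp fell by 0.42 (± 0.14 SE, edgeR adjusted p 0.0371, and 0.179 in the fit of 6 libraries). The Pfkp call was lost on omission of tumour 1, tumour 3, normal 2 or normal 3 (0.0648 to 0.106).

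Genes that process App were examined because the knock-in alters the protein they act on. Of 15 tested, 1 rose and 2 fell, near the shares over all genes (10.4% higher and 9.97% lower), and the median was -0.04. Adam10, the protease of the non-amyloidogenic cut, had 386, 346 and 341 CPM in tumours and 234, 246 and 151 CPM in normal colon (log2 ratio 0.77 ± 0.18 SE, edgeR adjusted p 0.00888). Its edgeR adjusted p was 0.0648 in the fit of 6 libraries and 0.0502 without normal 3. Apbb1, which encodes the adaptor Fe65 that binds the App tail, had 2.59, 3.08 and 1.66 CPM against 6.92, 7.41 and 7.95 CPM (log2 ratio -1.58 ± 0.27 SE, edgeR adjusted p 0.00232, held throughout). Sorl1, a sorting receptor of App, fell by 0.41 (± 0.12 SE, edgeR adjusted p 0.0267), with 0.0868 in the fit of 6 libraries and 0.0532 to 0.0611 without tumour 2, tumour 3 or normal 2. The App relative Aplp2 did not pass (log2 fold change 0.13).

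The tumour effect in knock-in males was set beside that in wild-type males, which shares no library with it. In wild-type males 5697 genes passed (35.7%), with 16.5% of all tested genes higher and 19.3% lower. Fitted alone, tumours had a coefficient of variation of 15.1% in wild-type and 32.5% in knock-in males, and normal colon 27.4% and 25.6%. Whether this spread accounts for the numbers of calls was not tested. The smooth muscle list had 18 of 18 lower with a median of -3.29 in wild-type males, against 17 of 18 and -2.09 in knock-in males. Over that list the wild-type tumours summed to 825 to 1658 CPM. The Wnt list had 14 of 20 higher with a median of 1.86, against 1 of 20 and 0.60, and the wild-type tumours summed to 4570 to 4973 CPM. Axin2 rose by 1.90 in wild-type males (edgeR adjusted p 0.00294) and did not pass in knock-in males. Neither list had a gene with a called difference between the genotypes, and for Axin2 that difference was -1.37 (edgeR adjusted p 0.166). Fatty acid oxidation genes had 13 of 16 lower in wild-type males and 0 in knock-in males, and 2 differed between the genotypes. For B cell genes, 3 of 17 were lower in wild-type males, near the share of 19.3% over all genes, and none had a called difference between the genotypes. The B cell median was nevertheless negative in both, at -1.49 in wild-type and -2.21 in knock-in males. The list summed to 49.2 to 55.3 CPM in wild-type tumours and 65.5 to 220 CPM in wild-type normal colon.

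The difference of the tumour effects was tested as an interaction, and 240 genes passed (1.51%). For 181 (1.14%) the effect was more positive in knock-in than in wild-type males, and for 59 (0.37%) it was more negative. In knock-in males Chrm2, a muscarinic receptor of smooth muscle, fell less, from 18.3, 10.51 and 10.98 CPM to 5.17, 2.60 and 2.25 CPM, while wild-type tumours held at most 0.737 CPM (difference 3.11, edgeR adjusted p 0.0474). Pou2f2, a lymphoid transcription factor, fell in knock-in males, from 4.30, 7.41 and 5.19 CPM to 1.29, 0.769 and 0.979 CPM (difference -2.75, edgeR adjusted p 0.0411). The wild-type log2 fold change of Pou2f2 was 0.28. Pparg, the adipogenic and epithelial nuclear receptor, had a log2 fold change of 0.19 in knock-in and -1.03 in wild-type males (difference 1.23, edgeR adjusted p 0.0406). Prkg1, a kinase of muscle relaxation, fell by 1.05 in knock-in and by 2.71 in wild-type males (difference 1.66, edgeR adjusted p 0.0477). These calls sit close to the threshold and their number is not stable: it was 1 with only the 12 libraries of the males in the fit, 0 without tumour 2, normal 1 or normal 3, and 2104 without normal 2. Leaving out a wild-type library gave 0 to 416. In these fits 2706 to 4915 genes had an unadjusted p under 0.05.

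**Figure D5:**
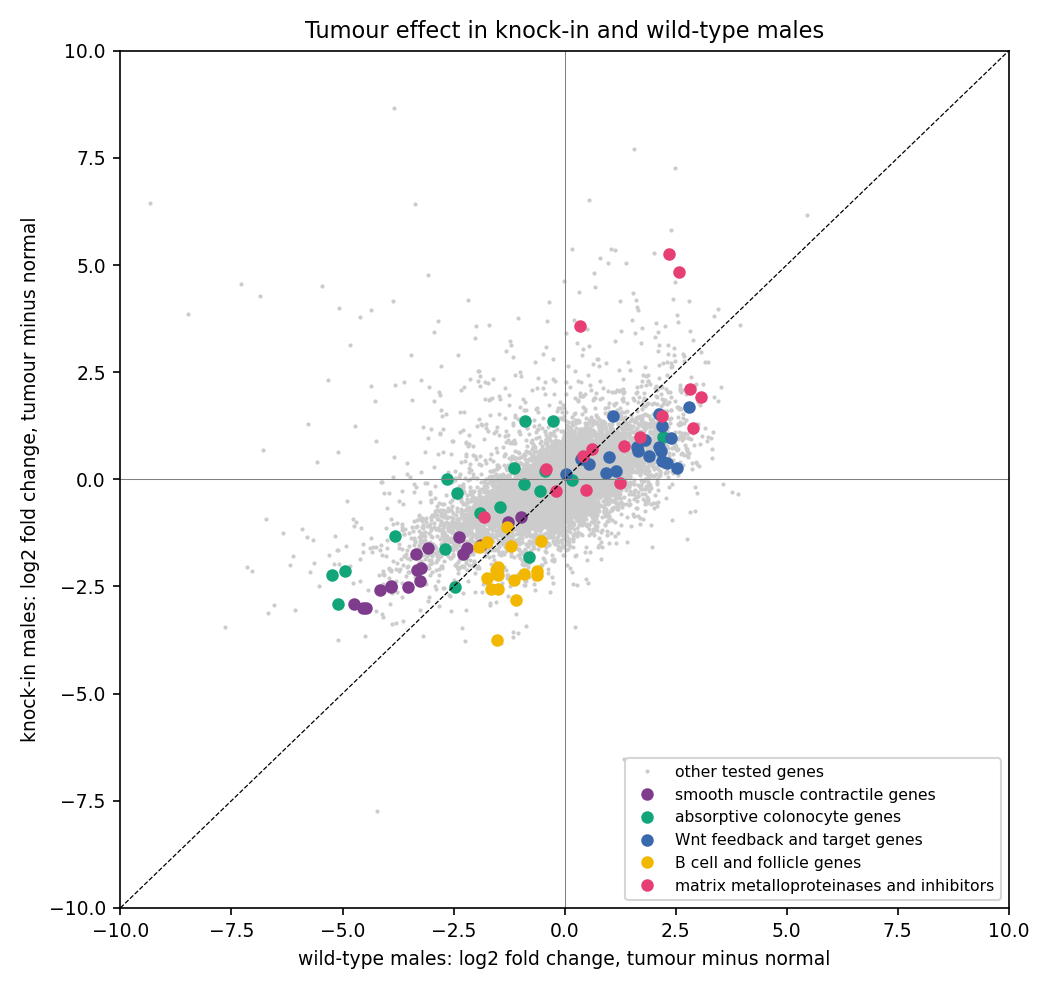
Log2 fold change of tumour over normal colon in knock-in males (vertical axis) against wild-type males (horizontal axis) for all 15936 tested genes, with 5 lists in colour and a dashed line of equal change. Smooth muscle genes lie in the lower left above the line, with the smaller decrease in knock-in males, and the Wnt list lies near the horizontal axis at positive wild-type values.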

How the data were processed

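Mouse colon RNA was depleted of ribosomal RNA, primed at random and sequenced on an Illumina instrument, according to the labels' protocols. The deposited counts are raw and cover 24062 genes. Trimmomatic, HISAT2, featureCounts, DESeq2 and build mm10 are named in the submitters' processing notes, without versions. Strand setting and annotation are not given in the sources used here, so antisense, overlapping and paralogous genes are uncertain. A table deposited by the authors gives log2 fold changes and adjusted p-values per pair of groups. For knock-in males the authors' deposited table has 1886 genes higher and 1911 lower past 0.05, and 3219 genes passed with the same direction both there and here.

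Groups came from the labels. The counts were tested with edgeR 4.0.16 (R 4.3.3): TMM scaling, the filterByExpr filter (15936 genes left), a quasi-likelihood F test, two-sided, robust, with 1 coefficient for each of 7 groups over all 21 libraries, and Benjamini-Hochberg adjustment over all tested genes at 0.05. Alternatives used limma 3.58.1 (voom with quality weights), DESeq2 1.42.0, other scalings and filters, fewer libraries, the replicate number as a block and a covariate for libraries numbered 152 and above. The fit of 6 libraries less 1 library, and the fit of the 18 numbered libraries without the block, were added after seeing the data. Tests were checked on simulated data. Standard errors come from the fold change and the F statistic. A count of 3 is treated as the floor, which covers counting error only. The median log2 fold change of all genes was 0.01 with TMM and 0.04 with library totals.

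Named genes were App; the 10 largest changes each way among called genes with a mean of at least 50 counts in a group, no overlap between groups and no predicted, ribosomal or mitochondrial name; up to 4 called members each way of each list with a mean of at least 20 counts, and up to 2 uncalled ones of highest CPM; and the largest genotype differences. Members and lists were chosen with earlier results of these data known. Of 161 named genes 160 were matched to RefSeq (GRCm38.p6), whose promoter windows were used. Genes named outside the rule are Guca2a, Myl9, Epcam, Cdh1, Mmp2, Mmp14, Mmp7, Sp5, Areg and Ccnd1, and Hnf4a and Ceacam20 are plotted among the epithelial genes outside it, all taken after their values were seen.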

Additional observations from a re-analysis of the deposited data

Results flagged for a closer look

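The tumour effect differed between knock-in and wild-type males for 240 genes in edgeR's test of the interaction, which is why these results are listed. Of the 5 largest positive differences, Bves had a log2 difference of 4.76 (edgeR adjusted p 0.0465), Fibin 4.25 (0.0419), Aldh1a7 3.77 (0.0439), Chrm2 3.11 (0.0474) and A4gnt 3.09 (0.0442). For Bves and Fibin the wild-type tumours stood at or below 0.184 CPM, so the fitted size depends on the prior count and is not a bound, and wild-type tumour 2 held 3414123 counts, the fewest of the series. Of the 5 largest negative differences, Pou2f2 had -2.75 (edgeR adjusted p 0.0411), Kcnb2 -2.53 (0.0481), H2afy2 -2.36 (0.0406), Zfp783 -2.07 (0.0442) and Sh2b2 -2.06 (0.0492). H2afy2 had 6.26, 3.02 and 5.48 CPM in knock-in tumours and 6.17, 3.73 and 7.61 CPM in knock-in normal colon, and its wild-type log2 fold change was 2.11. Zfp783 fell in knock-in males by 1.58 on the log2 scale, with a wild-type value of 0.48.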

How the results depend on the processing

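Tumour against normal colon gave 3246 genes, 724 in the 6 libraries alone, 2799 with the replicate block and 2788 in the same 18 numbered libraries with no replicate block. Leaving out a knock-in library gave 1392 to 2994 genes, and 466, 218, 54, 154, 99 and 26 in the fit of the 6 libraries without tumour 1, 2, 3 and normal 1, 2, 3. The deviations of same-numbered tumours and normal libraries had correlations of -0.30, 0.06 and 0.06. Those of differently numbered libraries ran from -0.31 to 0.25. With 3 libraries in a group these values cannot tell whether the numbers mark pairs. The genotype difference, 240 genes, was 95 with no low-count filter, 408 at a mean of at least 50 counts, 1326 with DESeq2, 1151 with limma voom, 1 in the 12 male libraries alone, 0 with the replicate block (3838 genes unadjusted), 0 in the 18 libraries with no replicate block (3854 unadjusted) and 2 with the library-number covariate. Leaving out a library gave 0 to 2104. The cause was not tested.

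App ranged from -0.0202 (without normal 2) to 0.27 on omission of a library, with -0.00716 without tumour 2. The collagen median was -0.0537 at a mean of at least 50 counts, -0.0298 with the replicate block, -0.157 with the covariate, and -0.151 to -0.0280 without tumour 2, tumour 3, normal 2 or normal 3 (-0.0561 and -0.0736 for the last pair), and 0.0487 without tumour 1. The mast cell median was -0.435 at that mean, -0.00302 with limma voom and -0.481 to 1.07 on omission of a library (lowest without tumour 1). The mesothelial median was -1.18 to 0.475 (highest without normal 2). The App processing median was -0.20 to 0.0764, with 0.0338 without tumour 3 and 0.0764 without normal 1. The fit of 6 libraries ended 49 of the named calls and limma voom 25.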
